A study of Mus musculus with 26 samples.

Results

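The 63 mouse genes described here are the protein-coding genes whose symbol starts with Serpin, out of 21521 protein-coding genes that RefSeq places on the chromosomes of the mouse assembly GRCm38.p6 (mm10). They were chosen by symbol alone and were grouped by the clade letter in the symbol, which gave 9 clades from A to I, and by position. An array was defined as at least 3 Serpin genes with gaps of at most 250 kb between neighbours. By this definition 51 genes lay in 3 arrays on chromosomes 1, 12 and 13, and the other 12 lay outside them.

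Serpins are a superfamily of proteins most of which inhibit serine proteases by a suicide mechanism. The target protease cleaves an exposed loop of the serpin, and the loop then inserts into a central sheet and traps the enzyme in an inactive complex. Clade A holds mainly proteins secreted by the liver into plasma, such as the antitrypsins, and clade B holds mainly intracellular inhibitors such as the granzyme B inhibitor Serpinb9. Several members do not inhibit proteases, among them the hormone carriers Serpina6 and Serpina7 and the collagen chaperone Serpinh1.

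The boundary positions came from Micro-C, a form of chromosome conformation capture in which crosslinked chromatin is cut with micrococcal nuclease, of mouse embryonic stem cells in the G1 phase. The cells were the RAD21-dTAG line, derived from Bruce-4 cells with the C57BL/6J genotype, in which the cohesin subunit RAD21 carries a tag that lets the dTAG compound degrade it. The study had 26 libraries in 5 groups. These were stem cells with DMSO at 0.05% by volume (6 libraries), 500 nM dTAG (6) or 20 µM of the acetyltransferase inhibitor A485 (6), and epiblast-like cells with DMSO (4) or dTAG (4). Groups were taken from the library titles. For some libraries titled as stem cells with dTAG or A485, the growth protocol mentions epiblast-like cells. Only the DMSO-treated stem cells are described here, through a single list of 3515 boundary intervals, each 25 kb wide, that the authors made from the pooled libraries. All groups of the study carried the tagged RAD21, and all described values come from 1 cell line. The list has no score, no value per library and no known depth, so no value below has a replicate error and no difference was tested against one. A boundary is a place where contacts between its flanks are depleted, and a domain is used here for the stretch between neighbouring boundaries. A gene was put in a domain, or in a boundary, by its midpoint.

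Serpin genes lay farther from boundaries than protein-coding genes as a whole, and most of them shared a long domain with their paralogs. The median distance from the nearer gene end to the nearest boundary was 229 kb for the 63 Serpin genes, with a range from 0 to 520 kb, beside 98.9 kb for all protein-coding genes. A 95% interval of the Serpin median from order statistics ran from 155 to 275 kb, but neighbouring genes share their boundaries and are not independent points. Within 10 kb of a boundary lay 7 of the 63 genes, or 11.1% (95% Wilson interval 5.49 to 21.2%), where 18.3% of all protein-coding genes did. An end lay inside a boundary for 6 genes, or 9.52%, beside 11.7% of all genes. Within 50 kb lay 13 genes, or 20.6%, beside 35.6% of all genes. Over 200 kb from any boundary the order was turned round, with 35 Serpin genes, or 55.6%, beside 29.4% of all genes. At 500 kb it had turned again, since 98.4% of Serpin genes lay within that distance, beside 92.7% of all genes.

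**Figure D1:**
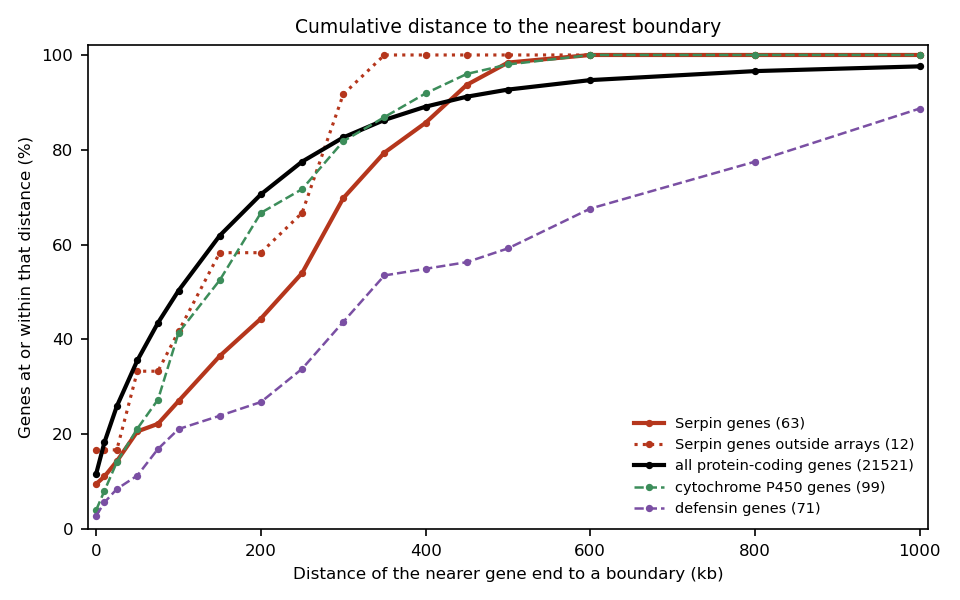
The share of genes (vertical axis, %) whose nearer end lies at or within a given distance of a boundary (horizontal axis, kb) for Serpin genes, Serpin genes outside the arrays, all protein-coding genes, and the cytochrome P450 and defensin genes; the number of genes stands in the legend. At 200 kb the curve for the 63 Serpin genes is at 44.4% and that for all protein-coding genes at 70.6%, while the 12 Serpin genes outside the arrays reach 58.3%.

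The median distance of each array was above that of the genes outside the arrays. The median distance was 189 kb for the 12 genes of the chromosome 1 array, 294 kb for the 23 genes of the chromosome 12 array and 178 kb for the 16 genes of the chromosome 13 array. For the 12 genes outside the arrays it was 120 kb. Clade A, with 24 genes, had a median of 290 kb and no gene within 10 kb, and clade B, with 28 genes, had a median of 189 kb and 5 genes within 10 kb. The clade B share of 17.9% was near the 18.3% of all protein-coding genes. The other 2 genes within 10 kb were of clade E. No gene of clades C, D, F, G, H or I came within 10 kb, but these clades hold only 1 or 2 genes each.

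**Figure D2:**
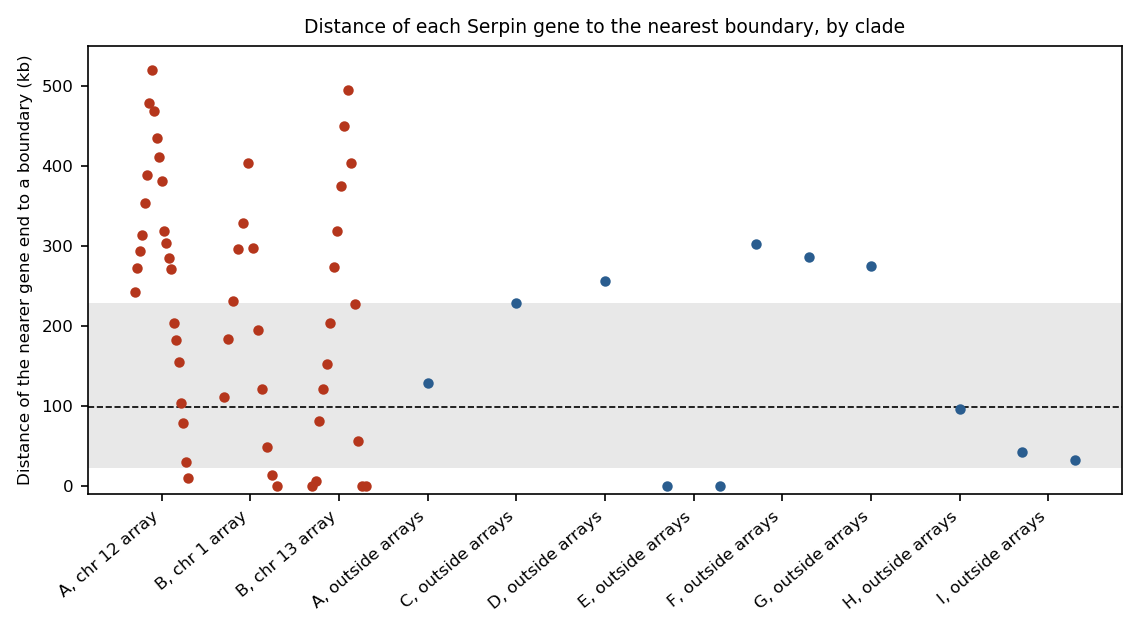
Each point is 1 of the Serpin genes reported here, with the distance of its nearer end to a boundary on the vertical axis (kb) and its clade on the horizontal axis; genes of an array (red) are in chromosomal order and blue points lie outside the arrays. The dashed line is the median of all protein-coding genes, 98.9 kb, and the grey band runs from their lower quartile of 22.8 kb to their upper quartile of 229 kb; the array genes form arches that reach 404 to 520 kb.

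Most genes of each array lay in 1 domain. That domain ended within 10.7 kb of the array or inside it at the right end of all 3 arrays and at the left end on chromosome 13, while on chromosomes 1 and 12 it began 111 and 242 kb before the array. Of 49 pairs of neighbouring Serpin genes up to 250 kb apart, 46, or 93.9%, were in the same domain, beside 79.3% of 20223 such pairs of protein-coding genes, although the median gap was 31.2 kb in the Serpin pairs and 11.9 kb in all pairs. In domains of 1 Mb or more lay 40 of the 63 Serpin genes, or 63.5%, beside 26% of all protein-coding genes, and all 40 lay on chromosomes 11, 12 and 13. The domain of a Serpin gene had a median length of 1025 kb, beside 675 kb for all genes. Counting each of the 15 domains once gave 600 kb, beside 500 kb for all domains. The 3 main array domains were 825, 1050 and 1025 kb long, at least as long as 75.7, 83.6 and 82.8% of all domains. In these 3 domains 48 Serpin genes had a median distance of 271 kb and 2 of them, or 4.17%, were within 10 kb, while 2798 other protein-coding genes in 302 domains of 825 to 1050 kb had a median of 181 kb and 8.72% within 10 kb.

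**Figure D3:**
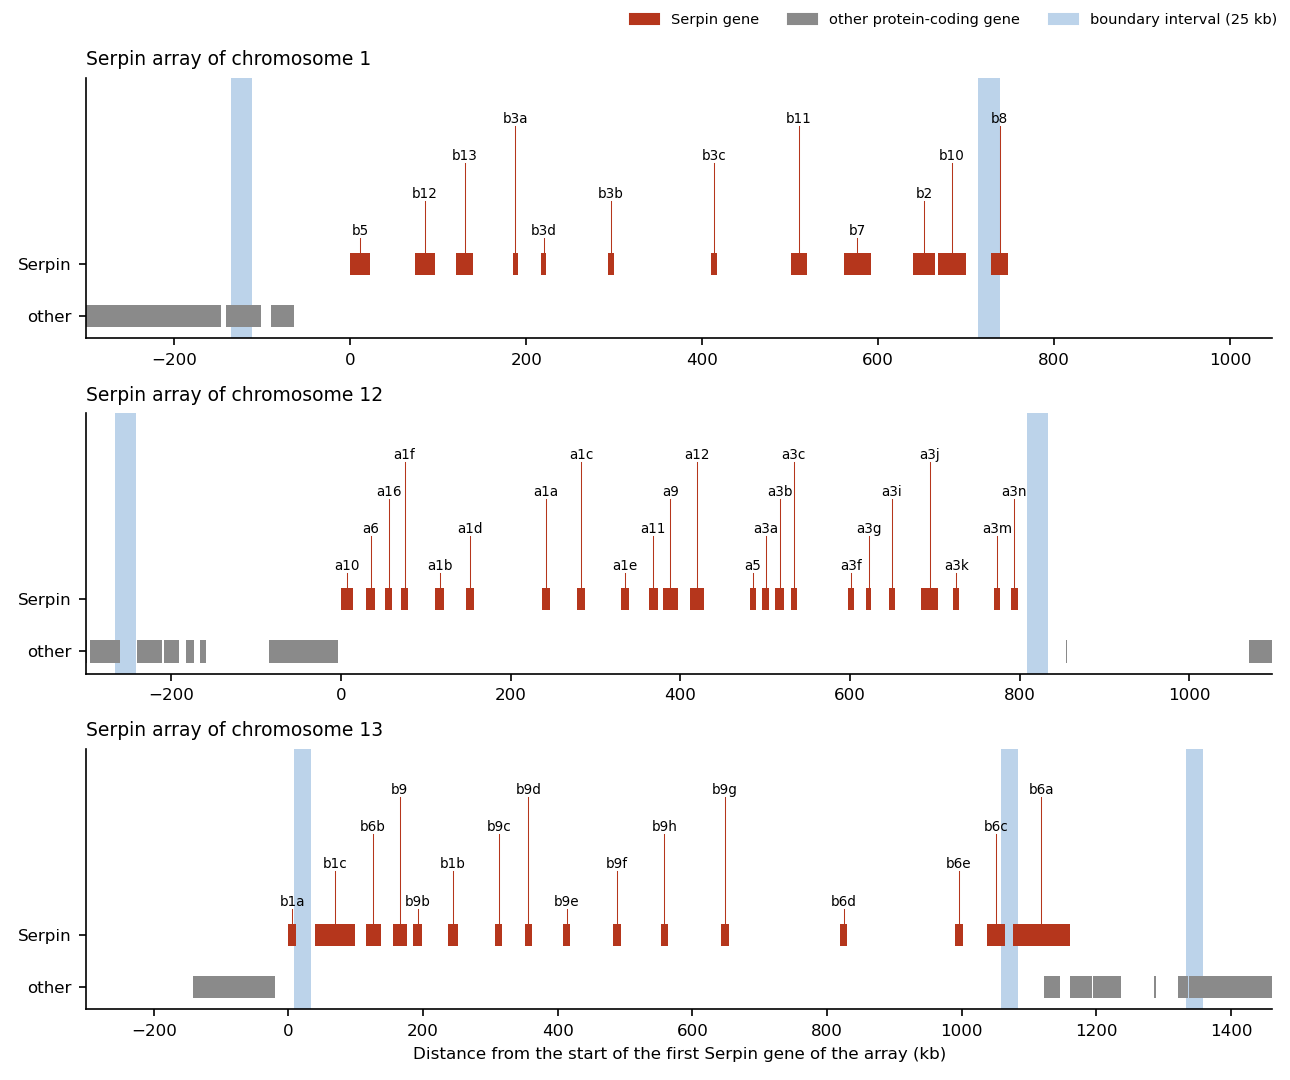
Maps of the 3 arrays to scale, with Serpin genes in red (names without the prefix), other protein-coding genes in grey below them and boundary intervals of 25 kb as blue bands; the horizontal axis is the distance in kb from the start of the first Serpin gene. No boundary stands between members on chromosome 12. On chromosome 1, 1 begins after Serpinb10 and holds the start of Serpinb8, and on chromosome 13, 2 cut off Serpinb1a and Serpinb6a.

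The chromosome 12 array was uncut. It holds 23 clade A genes from Serpina10 to Serpina3n over 798 kb (chr12:103616675-104414334), with 0 boundaries between them, and lies in a domain of 1050 kb (chr12:103375001-104425000). No other protein-coding gene lay between the members, where 14 pseudogenes, 5 of them named Serpin, and 3 long noncoding RNA genes were annotated. The domain also held Otub2, Ddx24, Ifi27l2a, Ifi27, Ifi27l2b and Ppp4r4, all between the left boundary and Serpina10, so that 23 of its 29 protein-coding genes, or 79.3%, were serpins. The left boundary lay 242 kb before the array, held an end of Asb2 and stood 1.89 kb before Otub2. The right boundary (chr12:104425001-104450000) began 10.7 kb after Serpina3n, held no end of a protein-coding gene and stood 21.2 kb before Gsc, the goosecoid homeobox gene of the early embryo. Beyond it, Gsc, Dicer1, Clmn and Syne3 shared a domain of 550 kb with no serpin.

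Within this domain the paralogs kept their own stretches. The 6 Serpina1 genes, relatives of antitrypsin, the plasma inhibitor of neutrophil elastase, spanned 269 kb in the middle, at distances of 313 kb for Serpina1f, 353 kb for Serpina1b, 389 kb for Serpina1d, 478 kb for Serpina1a, 468 kb for Serpina1e and 520 kb for Serpina1c. Serpina1c stood at 50% of the domain's length and was the Serpin gene farthest from any boundary. The 10 Serpina3 genes, relatives of antichymotrypsin, spanned 302 kb at the right end. Their distances fell along the chromosome from 303 kb at Serpina3a through 285, 271, 204, 183, 155, 104 and 79.3 kb at Serpina3b, Serpina3c, Serpina3f, Serpina3g, Serpina3i, Serpina3j and Serpina3k to 30.7 kb at Serpina3m and 10.7 kb at Serpina3n. The last of these was just outside the limit of 10 kb. Between the paralog groups stood Serpina11 at 435 kb, Serpina9 at 411 kb, the adipose-derived vaspin Serpina12 at 381 kb and the protein C inhibitor Serpina5 at 319 kb. At the left end lay Serpina10, which inhibits factor Xa with protein Z, at 242 kb, the corticosteroid-binding globulin Serpina6 at 272 kb and Serpina16 at 294 kb. Of the 18 members with a known strand, 8 were on the plus and 10 on the minus strand: every such gene from Serpina16 to Serpina12 was on the minus strand, and from Serpina5 on all but Serpina3c were on the plus strand.

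The chromosome 1 array had its right boundary at its last gene. It holds 12 clade B genes from Serpinb5 to Serpinb8 over 748 kb (chr1:106861175-107608978), with 8 pseudogenes, none named Serpin, and no long noncoding RNA gene in the span. Of the 12 protein-coding genes of its 825 kb domain (chr1:106750001-107575000), 11 were serpins, or 91.7%, and the twelfth was Vps4b, an endosomal sorting ATPase. The left boundary lay 111 kb before Serpinb5, inside the body of Kdsr, 10.7 kb after the apoptosis inhibitor Bcl2 and 20.8 kb before Vps4b, and Bcl2 was the only protein-coding gene of the domain beyond. The right boundary (chr1:107575001-107600000) held the midpoint and the start of Serpinb8. The gene after Serpinb8, Cdh7, came 2382 kb beyond this boundary, and the next domain of 1225 kb held no protein-coding gene.

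Serpinb8 was the only member of the chromosome 1 array within 10 kb of a boundary. Its neighbours on the left stood at 14.3 kb for Serpinb10 and 49.4 kb for Serpinb2, the plasminogen activator inhibitor of macrophages and placenta. Next came Serpinb7 at 122 kb and Serpinb11 at 195 kb. The 4 Serpinb3 genes, relatives of the squamous cell carcinoma antigens, lay in the middle at 296 kb for Serpinb3a, 328 kb for Serpinb3d, 404 kb for Serpinb3b and 297 kb for Serpinb3c. They were the 4 members farthest from a boundary. Towards the left end Serpinb13 stood at 231 kb, Serpinb12 at 184 kb and Serpinb5, the gene of maspin, at 111 kb. The 4 Serpinb3 genes were on the minus strand, and the other 7 members with a known strand were on the plus strand.

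The chromosome 13 array was cut at both ends. It holds 16 clade B genes from Serpinb1a to Serpinb6a over 1161 kb (chr13:32842092-34002794), with 12 pseudogenes, 1 of them named Serpin, 7 long noncoding RNA genes and 1 other protein-coding gene, Nqo2, in the span. The 14 genes between the cuts filled a domain of 1025 kb (chr13:32875001-33900000) in which every protein-coding gene was a Serpinb gene. The left boundary (chr13:32850001-32875000) held an end of Serpinb1a, an inhibitor of neutrophil elastase, and stood 6.22 kb before Serpinb1c. Serpinb1a thereby fell into a domain of 1175 kb with Wrnip1, Mylk4, Gmds and Foxc1. The right boundary (chr13:33900001-33925000) held an end of Serpinb6c and an end of Serpinb6a. Serpinb6a fell into a domain of 250 kb with Nqo2, Ripk1, Bphl, Tubb2a, Tubb2b and Psmg4.

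In the chromosome 13 array 4 of 16 genes, or 25%, were within 10 kb (95% Wilson interval 10.2 to 49.5%, which holds the 18.3% of all protein-coding genes). All 4 were at its ends: Serpinb1a, Serpinb6a and Serpinb6c at 0 kb and Serpinb1c at 6.22 kb. The other paralogs of these end genes lay within the domain. Serpinb1b, at 204 kb, and Serpinb1c shared a domain that Serpinb1a was not in. Of the 5 Serpinb6 genes, Serpinb6b at 81.8 kb, Serpinb6d at 228 kb, Serpinb6e at 56.6 kb and Serpinb6c were in the main domain and Serpinb6a was beyond the boundary. The 8 Serpinb9 genes, which include the granzyme B inhibitor Serpinb9 of cytotoxic lymphocytes, lay in the interior, with Serpinb1b between Serpinb9b and Serpinb9c. Their distances were 122 kb for Serpinb9, 152 kb for Serpinb9b, 274 kb for Serpinb9c, 318 kb for Serpinb9d, 375 kb for Serpinb9e, 449 kb for Serpinb9f, 495 kb for Serpinb9h and 404 kb for Serpinb9g. None of these 8 genes was within 100 kb of a boundary.

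The start sites gave a smaller count near boundaries than the gene ends did. Of the 63 members, 54 matched the RefSeq promoter table of GRCm38.p6 and had a start site with a strand, in 63 windows, since 9 genes had a pair of windows. A start site lay inside a boundary for 2 of the 54 genes, or 3.7%, namely Serpinb8 and Serpinb6c, beside 7.25% of 17274 protein-coding genes with such a window. No further start site came within 10 kb. Serpinb1a, with an end inside a boundary, is not among the 54 genes and was not counted. At Serpinb6a and Serpine2 it was the end opposite the start that touched the boundary, with start sites at least 11.1 kb and 58.7 kb away, and the start sites of Serpinb1c were at least 23.1 kb away. The 250 bases before the start sites of Serpinb8 (chr1:107589756-107590005, plus strand) and Serpinb6c (chr13:33905192-33905441, minus strand) are shown because these are the members whose promoters lie inside boundary intervals. The capitals mark GTTAAT, an arm of the recognition sequence of the liver-enriched factor HNF1, found here in Serpinb8 alone.
Serpinb8: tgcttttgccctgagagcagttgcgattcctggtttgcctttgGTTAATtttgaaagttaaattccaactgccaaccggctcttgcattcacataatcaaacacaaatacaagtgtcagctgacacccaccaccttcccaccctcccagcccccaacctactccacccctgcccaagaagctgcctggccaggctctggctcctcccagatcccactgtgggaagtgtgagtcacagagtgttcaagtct
Serpinb6c: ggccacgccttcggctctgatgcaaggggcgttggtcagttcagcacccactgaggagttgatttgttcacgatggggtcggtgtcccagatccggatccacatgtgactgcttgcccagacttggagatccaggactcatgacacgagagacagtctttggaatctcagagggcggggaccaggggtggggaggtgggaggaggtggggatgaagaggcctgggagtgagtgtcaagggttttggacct
Neither window held a CTCF core motif, CTCF being the factor that stops cohesin at many boundaries. That says only that these letters are not in the windows of 300 bases searched, within intervals of 25 kb.

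The promoters of a few groups of close paralogs resembled each other, and those of most array genes did not. Windows of 300 bases, from 250 before to 50 after the start site, were compared by global alignment. Of the pairs whose members were not in the same array, 1118 in all, none reached 70% identity, and their median was 49.4%. Within the arrays the medians were close to that value, at 51.1% on chromosome 1, 49.6% on chromosome 12 and 49.9% on chromosome 13. There 3 of 55, 7 of 153 and 6 of 105 pairs reached 70% or more, from 74.9 to 93.4% with a median of 89.7%, and in all 16 both genes lay in the same domain. They comprised 6 pairs among Serpina1a, Serpina1b, Serpina1c and Serpina1d, 6 pairs among Serpinb9d, Serpinb9e, Serpinb9f and Serpinb9g, 3 pairs among Serpinb3a, Serpinb3b and Serpinb3c, and Serpina3c with Serpina3n at 89.9%. Other paralogs of the same domain fell short of 70%, such as Serpinb3a and Serpinb3d at 50.4%, Serpina3a and Serpina3b at 50.7% and Serpinb9 and Serpinb9b at 59.6%, and no pair of Serpinb6 promoters exceeded 67.4%. Only 3 of the 49 neighbouring pairs were in different places. Among the pairs compared within arrays, only those with Serpinb8 or Serpinb6a were, so few alike pairs could have been split.

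**Figure D4:**
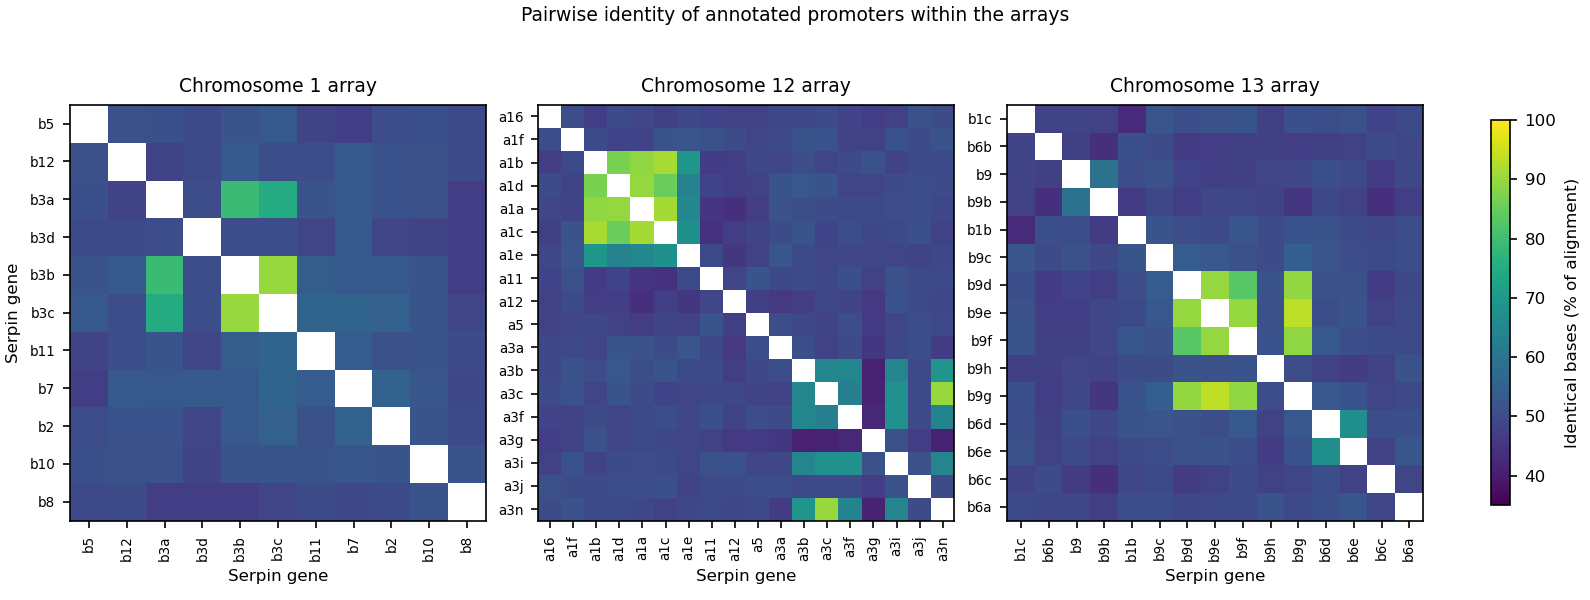
Identity between the promoter windows of the genes of each array (colour, identical bases as % of the alignment), with genes in chromosomal order on both axes and names without the prefix. The blocks of high identity are Serpina1a to Serpina1d, Serpinb9d to Serpinb9g, Serpinb3a to Serpinb3c and the pair of Serpina3c and Serpina3n; most other pairs lie near 50%.

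The promoters of Serpina1a to Serpina1e carried the same stretch around GTTAAT, which was not found in the window of Serpina1f. The windows shown run from 50 bases before this motif (in capitals) to 10 bases after it, all on the minus strand, and stand for the block of copies in the middle of the chromosome 12 domain. They lie at chr12:103863625-103863690, chr12:103738200-103738265, chr12:103904962-103905027, chr12:103773634-103773699 and chr12:103956960-103957025, in the order printed.
Serpina1a: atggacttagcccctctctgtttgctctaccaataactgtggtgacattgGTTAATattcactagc
Serpina1b: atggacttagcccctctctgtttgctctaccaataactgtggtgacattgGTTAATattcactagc
Serpina1c: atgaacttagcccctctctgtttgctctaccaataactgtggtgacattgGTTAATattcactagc
Serpina1d: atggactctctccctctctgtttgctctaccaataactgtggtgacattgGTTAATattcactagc
Serpina1e: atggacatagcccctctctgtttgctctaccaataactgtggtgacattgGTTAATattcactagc
Of the 66 bases, 60 were the same in all 5 genes, and any pair shared 61 to 66. The annotated start site of Serpina1e lies farther downstream of this stretch than in the other copies. Over the windows of 300 bases, which were not realigned to a common point, its identity to those copies was 63.9 to 69.3%.

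The Serpinb9 copies of chromosome 13 and the Serpinb3 copies of chromosome 1 are shown in the same way, as the 120 bases before the start site, for the interior of the other array domains. Capitals mark TATAAA, the TATA box that sets the start of many tissue-specific genes, and GTTAAT on either strand. The Serpinb9 windows are on the plus strand at chr13:33192835-33192954, chr13:33249488-33249607, chr13:33323957-33324076 and chr13:33484670-33484789, and the Serpinb3 windows are on the minus strand at chr1:107052304-107052423, chr1:107161115-107161234 and chr1:107278372-107278491.
Serpinb9d: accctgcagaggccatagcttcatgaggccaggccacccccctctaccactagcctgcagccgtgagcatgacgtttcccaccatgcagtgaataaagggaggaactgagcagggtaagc
Serpinb9e: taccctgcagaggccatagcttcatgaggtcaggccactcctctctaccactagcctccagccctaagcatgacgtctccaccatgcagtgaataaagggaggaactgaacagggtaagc
Serpinb9f: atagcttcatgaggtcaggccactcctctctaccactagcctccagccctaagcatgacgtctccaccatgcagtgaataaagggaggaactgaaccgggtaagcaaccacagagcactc
Serpinb9g: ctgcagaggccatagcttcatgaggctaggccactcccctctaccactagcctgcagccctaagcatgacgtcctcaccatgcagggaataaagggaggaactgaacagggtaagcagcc
Serpinb3a: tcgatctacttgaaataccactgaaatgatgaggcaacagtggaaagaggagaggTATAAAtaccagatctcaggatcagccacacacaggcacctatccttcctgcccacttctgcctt
Serpinb3b: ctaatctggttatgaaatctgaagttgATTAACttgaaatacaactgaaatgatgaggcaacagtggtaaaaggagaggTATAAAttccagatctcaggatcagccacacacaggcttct
Serpinb3c: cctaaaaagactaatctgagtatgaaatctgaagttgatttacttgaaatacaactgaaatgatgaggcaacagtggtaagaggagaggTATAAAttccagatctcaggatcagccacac
The Serpinb3 windows shown hold TATAAA, and the Serpinb9 windows shown do not.

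Across all 63 Serpin windows TATAAA, searched on both strands, was found in 18, or 28.6%, beside 13.6% of 32851 windows of all genes. The 18 windows belong to 15 genes. In the chromosome 1 array 9 of 13 windows held it. It was found in 4 of 20 windows of the chromosome 12 array and 2 of 19 of the chromosome 13 array. GTTAAT on either strand was found in 12 windows, or 19%, beside 7.1%, and the 11 genes that carried it were Serpina1a to Serpina1e, Serpina3c, Serpina7, Serpinb3b, Serpinb3d, Serpinb8 and Serpini2. The longer string searched for the full HNF1 site, which contains GTTAAT, was in no Serpin window and in 0.00913% of all. That is 3 of the 32851 windows. With so few matches, its absence does not show that the Serpin promoters lack an HNF1 site. The CTCF core was in the window of Serpinb6b alone, or 1.59%, beside 2.43% of all. Copies of a gene share letters, and paired windows of the same gene can overlap, so these shares do not count independent promoters. A match is a string of letters and not a measured site.

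The Serpin windows were poorer in CG pairs than those of all genes. The median was 3 CG dinucleotides per window and a GC content of 48.7%, beside 7 and 52.7%. The chromosome 1 array was the poorest, with a median of 0 CG dinucleotides and 39.7% GC, against 4 and 48.5% on chromosome 12 and 3 and 51% on chromosome 13. The highest value belonged to Serpine2, with 41 CG dinucleotides and 77.7% GC.

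The 12 genes outside the arrays showed no common place. Within 10 kb lay 2 of them, or 16.7%, beside the 18.3% of all protein-coding genes, and both were of clade E. Serpine2, the gene of protease nexin-1, an inhibitor of thrombin and plasminogen activators made in brain, had its end opposite the start in the boundary chr1:79775001-79800000. It was the only protein-coding gene of its domain of 350 kb, since its neighbours Mrpl44, 12.9 kb away, and Fam124b, 340 kb away, both lay outside. Serpine3 had its midpoint in the boundary chr14:62675001-62700000, its start site 11.3 kb before it, and overlapped Ints6.

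Most of the next 5 genes encode plasma inhibitors of coagulation, fibrinolysis or complement. All 5 lay in the interior of domains with 9 to 27 protein-coding genes. Antithrombin, Serpinc1, stood at 229 kb in a domain of 600 kb with 9 protein-coding genes, between Rc3h1 and Zbtb37 at gaps of 3.61 and 0.378 kb. Heparin cofactor II, Serpind1, stood at 256 kb in a domain of 775 kb with 26 genes and overlapped Pi4ka. The C1 inhibitor, Serping1, stood at 275 kb in a domain of 600 kb with 20 genes. Serpinf1, the pigment epithelium-derived factor, and Serpinf2, the inhibitor of plasmin, stood 9.11 kb apart at 302 and 286 kb in a domain of 1150 kb with 27 genes. All 5 genes were farther from a boundary than the median of all genes.

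A further 4 lay in domains with 2 to 6 protein-coding genes. The neuroserpin gene Serpini1, at 32.5 kb in a domain of 500 kb with 3 genes, and Serpini2, at 42.4 kb in a domain of 300 kb with 2 genes, are in different domains of chromosome 3. Pdcd10 lay 0.64 kb from Serpini1, and Wdr49 3.85 kb from Serpini2. The collagen chaperone gene Serpinh1 stood at 96.8 kb in a domain of 325 kb with 5 genes. The thyroxine-binding globulin gene Serpina7, the only clade A gene outside chromosome 12, stood at 129 kb in a domain of 425 kb on chromosome X with 6 genes.

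**Figure D5:**
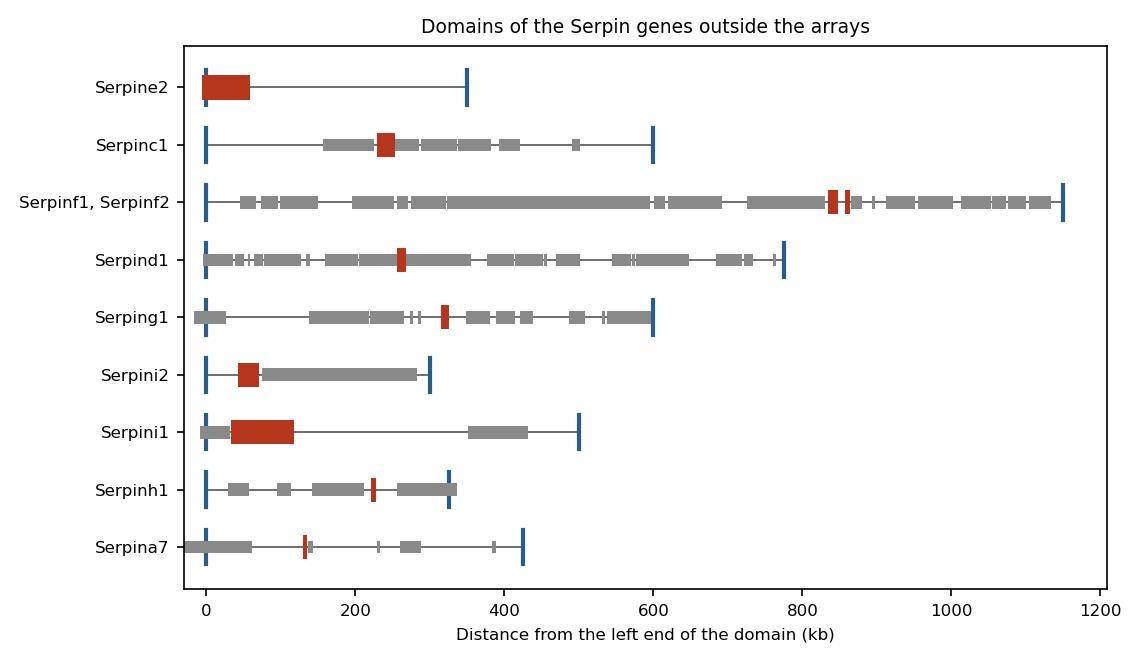
Domains of the Serpin genes outside the arrays that are described in the text, with distance from the left end of the domain on the horizontal axis (kb), domain ends as blue marks, Serpin genes in red and other protein-coding genes in grey (bodies that run past a domain end are drawn to at most 30 kb beyond it). Serpine2 touches its left boundary alone, while the domain of Serpinf1 and Serpinf2 holds 27 genes; Serpine3, whose midpoint is in a boundary, has no domain and is not drawn.

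Other families that form arrays are set beside the Serpin genes here, and beside the 98.9 kb and 18.3% within 10 kb of all protein-coding genes. The 99 cytochrome P450 genes, of drug and steroid metabolism, had a median distance of 137 kb with 8.08% within 10 kb (95% Wilson interval 4.15 to 15.1%). The 71 defensin genes, of antimicrobial peptides, had 343 kb and 5.63% (2.21 to 13.6%). The 29 genes of the cystatins and stefins, inhibitors of cysteine proteases, had 98.8 kb and 10.3% (3.58 to 26.4%). The 12 Spink genes, inhibitors of serine proteases by another fold, had 43 kb and 33.3% (13.8 to 60.9%), which is 4 genes. Neighbouring pairs were in the same domain in 93.7% of the cytochrome P450, 95.5% of the defensin, 94.4% of the cystatin and 57.1% of the Spink pairs, beside 93.9% for Serpin and 79.3% for all protein-coding pairs. A boundary between members was found in 2 of 8 cytochrome P450, 1 of 4 defensin, 1 of 2 cystatin and 1 of 2 Spink arrays, and in 2 of the 3 Serpin arrays. In domains of 1 Mb or more lay 38.4% of the cytochrome P450, 74.6% of the defensin, 6.9% of the cystatin and 0% of the Spink genes. The Serpin share was 63.5% and that of all protein-coding genes 26%. The Serpin median, share within 10 kb, share of pairs and share in such domains lay within the range of these families.

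Genes of the pathways and proteases on which serpins act were taken as 3 lists. The first also holds genes that do not encode proteases, such as those of fibrinogen. The lists are not complete. The second holds only C1r, C1s and Masp genes, and the third takes kallikrein genes only where the symbol starts with Klk1. Of 21 genes of coagulation and fibrinolysis, 2, or 9.52%, were within 10 kb, plasminogen (Plg) and factor IX (F9), both at 0 kb, and the median was 113 kb. The share over all protein-coding genes was 18.3% and lay within the 95% Wilson interval of each of the 3 lists (2.65 to 28.9% for this one). Of 6 complement protease genes, Masp1 at 1.78 kb and Masp2 at 9.5 kb, of the lectin pathway, were within 10 kb, which is 33.3% (9.68 to 70%), and the median was 96.5 kb. Of 45 serine protease genes of leukocytes and tissues, 6, or 13.3% (6.26 to 26.2%), were, namely the chymase genes Cma1 at 5.33 kb and Cma2 at 0 kb, the elastase gene Cela2a at 0 kb, and the kallikrein genes Klk14 at 5.88 kb, Klk1b5 at 4.3 kb and Klk1 at 0 kb. The median of these 45 was 107 kb. None of the genes of the 3 lists shared a domain with a Serpin gene. The share of all protein-coding genes in these domains was not computed, so no conclusion about the lists is drawn from this.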

How the data were processed

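The data are Micro-C contact maps, of which the boundary list of the pooled DMSO-treated stem cells was used. The other 4 groups were not analysed here. One member gene is part of the counts and medians but is not reported here by itself. Per the submitters' processing notes, the authors used BWA 0.7.17 and Juicer 1.22.01 on mm10. Which caller made the list, and with which settings, is not given in the sources used here. The deposited list gives chromosome, start and end of 3515 intervals, all checked to be 25 kb wide, with no score. Intervals of one width can be placed no finer than 25 kb. Contact depth is unknown.

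Genes came from RefSeq GRCm38.p6. Genes listed out of positional order at the end of a chromosome, which belong to scaffolds, were left out. Positions count from 1. The members, the lists and the comparisons were chosen with earlier results of these data known. Any Serpin gene may be named, with the genes next to an array or boundary. Genes of the 3 lists of pathways and proteases were named when near a boundary. Genes of Serpin domains were named after their values were seen. Distance ran from the nearer gene end to the nearest edge of an interval, and 0 meant inside it. Shares carry 95% Wilson intervals for counting only. Promoters were aligned globally with biopython 1.88 (match 1, mismatch -1, gap opening -2, extension -0.5). Python 3.11.15, numpy 2.4.6, pandas 2.3.3 and matplotlib 3.10.9 were used. The distance step was tested on simulated positions, and the domain and array steps on a small constructed layout.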

Additional observations from a re-analysis of the deposited data

How the results depend on the processing

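Of 25 alternative settings, 19 left the value within its interval or count range and 6 moved it. Shares at other windows were set against the wide interval of the 10 kb share, 5.49 to 21.2%. So 20.6% within 50 kb counted as unmoved, although the share of all genes there was 35.6%. The count of 19 is therefore a weak check. With neighbours under 100 kb apart merged to loci, 29.4% of 17 Serpin loci were within 10 kb (all genes 49.2%) and the median distance was 96.8 kb (all genes 11 kb). By start site the share within 10 kb was 3.7% (all genes 12.4%). Outside the arrays the median distance was 120 kb (all genes 98.9 kb) and the median domain 600 kb (all genes 675 kb). With each domain counted once the median domain was also 600 kb (all domains 500 kb). Start sites and members left out were chosen after seeing the data. Without the chromosome 1, 12 or 13 array the share within 10 kb was 11.8, 17.5 or 6.38% and the median distance 242, 168 or 242 kb. The share within 10 kb of the Serpin genes stayed below that of all genes in every setting, but without the chromosome 12 array the difference was 17.5 against 18.3%. With array gaps of at most 100 kb, 3 of 5 arrays had a boundary between members. Some placements at array ends turn on less than the 25 kb width of an interval. The midpoint of Serpinb1a lay 2.35 kb from its boundary, and the uncut chromosome 12 array ended 10.7 kb before one. A shift of boundaries by a whole interval was not examined. No paired analysis was possible because the list was made from pooled libraries and has no values per replicate. Each array counts as few independent places, since its members share boundaries.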

Other observations

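Domains filled by genes of a single symbol stem were uncommon. Of 545 domains with at least 10 protein-coding genes, 9, or 1.65%, held genes of only 1 symbol stem. These were 5 olfactory receptor domains and 1 each of keratin genes on chromosome 11, Serpinb genes on chromosome 13, cytochrome P450 genes on chromosome 19 and Ugt genes, of glucuronidation, on chromosome 5. At least 75% of the genes had 1 stem in 57 domains, or 10.5%, which included the 3 Serpin array domains and 28 domains of olfactory or vomeronasal receptors. A stem is not always a family, since some of the 57 domains had the stem Gm of provisional gene symbols. The counts by stem were chosen after the Serpin domains had been seen.

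On 1 side, each of the 2 clade E genes at boundaries had a neighbour with a Fam124 name. Fam124b was the next protein-coding gene on the right of Serpine2, 340 kb away, and Fam124a the next on the left of Serpine3, 54.8 kb away. Their nearer neighbours on the other side, Mrpl44 and Ints6, have other names. In both cases the Serpin gene and the Fam124 gene were in different places of the boundary map. That follows from each of these Serpin genes being the only protein-coding gene of its place. The domain of Serping1 also held Tfpi, the gene of tissue factor pathway inhibitor, which is on none of the lists above. These genes were chosen after their values were seen.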
